A study of Homo sapiens with 16 samples.

Results

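ATF4 is a transcription factor of the basic leucine zipper (bZIP) family that directs the cell's response to amino acid shortage and to stress in the endoplasmic reticulum. ATF4 and 9 genes of its pathway, ATF3, ATF5, DDIT3, DDIT4, ASNS, CHAC1, SESN2, VLDLR and CEBPB, were followed in pancreatic cancer cells given an inhibitor of the kinase mTOR. These 10 genes, among 19775 genes with a usable probe set, were chosen by their known place in the pathway. The choice was made with earlier results of these data known, so counts of them beside shares of all genes are a description. Where a gene had several probe sets, the one with the highest average signal stands for it, and the others served as a check.

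The cells were MiaPaca-2, an established human pancreatic cancer line, grown in high-glucose medium with serum and added glutamine. The 4 groups were polysome RNA of PP242-treated cells, polysome RNA of vehicle-treated cells, cytosolic RNA of PP242-treated cells and cytosolic RNA of vehicle-treated cells, with 4 arrays each. PP242, which blocks the catalytic site of mTOR in both of its complexes, was given at 2.5 µM for 12 hours, and the vehicle was DMSO. Polysome RNA was the pool of sucrose gradient fractions in which an mRNA carried more than 3 ribosomes, and cytosolic RNA was the RNA loaded on such gradients. All groups come from this single line, at a single dose and time. Whether the replicates of a group came from separate cultures is not stated in the labels. The p-values then measure no more than the variation among these samples, which may be technical.

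When a kinase such as GCN2 or PERK phosphorylates the initiation factor eIF2, most translation slows while ribosomes pass the short upstream reading frames of the ATF4 mRNA and reach its coding sequence. In growing cells mTOR complex 1 also raises ATF4 protein, and ATF4 then turns on genes for amino acid synthesis, amino acid uptake and tRNA charging. ATF4 acts together with other bZIP proteins, mainly of the C/EBP family, at C/EBP-ATF response elements. ATF4 protein was not measured here. The arrays read mRNA, so ATF4 is described by its mRNA and by the mRNAs of genes it is known to regulate.

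The promoter windows of these genes were searched for that element. RefSeq promoter windows on GRCh38.p14, which run from 250 bases before to 50 bases after a gene's start, were matched for all 10 genes (17 windows of alternative starts). The element's core was searched as TGATGNAA on both strands, where N is any base, and the cyclic AMP response element as TGACGTCA, whose letters are the same on both strands. The core was present in windows of 3 of the 10 genes, ASNS, CHAC1 and ATF3, and in 3.62% of all 35116 windows (4.46% of 27305 genes). TGACGTCA was in none of the members' windows and in 1.85% of all windows. A match describes letters only, and a missing match says nothing about binding elsewhere. The 250 bases before the start are shown for the 3 genes with the core, since ASNS fell strongly under PP242 while ATF3 did not pass the test in either pool. The letters are 5' to 3' on the strand of the gene, with the core in capitals. That of ASNS starts 68 bases before an alternative start (chr7:97872409-97872658, minus strand), which lies inside the span of the gene given below. That of CHAC1 starts 209 bases before the gene start and lies on the opposite strand (chr15:40953221-40953470, plus strand). That of ATF3 starts 191 bases before the gene start (chr1:212565157-212565406, plus strand).
ASNS: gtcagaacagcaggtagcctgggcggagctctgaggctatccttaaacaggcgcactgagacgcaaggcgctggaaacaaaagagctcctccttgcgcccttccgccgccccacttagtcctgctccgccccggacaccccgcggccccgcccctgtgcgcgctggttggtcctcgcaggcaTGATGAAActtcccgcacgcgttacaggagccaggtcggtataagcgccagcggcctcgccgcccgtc
CHAC1: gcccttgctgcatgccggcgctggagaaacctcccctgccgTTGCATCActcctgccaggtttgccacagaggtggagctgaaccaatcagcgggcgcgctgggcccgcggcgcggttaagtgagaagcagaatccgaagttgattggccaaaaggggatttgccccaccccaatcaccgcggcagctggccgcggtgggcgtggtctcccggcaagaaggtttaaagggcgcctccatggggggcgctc
ATF3: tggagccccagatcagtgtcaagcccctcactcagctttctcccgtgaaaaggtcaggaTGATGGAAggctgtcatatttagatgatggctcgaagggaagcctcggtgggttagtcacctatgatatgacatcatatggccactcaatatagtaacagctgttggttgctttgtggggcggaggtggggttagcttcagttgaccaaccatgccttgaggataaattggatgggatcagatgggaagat

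The values are RMA signals on the log2 scale, in which a difference of 1 is a doubling. Differences, rises and falls are in log2 units unless a fold is named. Levels are compared only within a gene, because probe sets differ in how brightly they report. Arrays within a group correlated at 0.979 to 0.998. The cytosolic PP242 arrays varied most, with a median gene SD of 0.245 against 0.122 in cytosolic vehicle, and their replicates 2 and 4 got the lowest array weights, 0.36 and 0.251. Arrays numbered 1 and 2 differed from those numbered 3 and 4 in several members, as described below. Of markers checked against the label, the keratins KRT8, KRT18 and KRT19 and the mesenchymal markers VIM and AXL had group means from 9.29 to 14.31. KRT7 and MUC1 had group means from 6.29 to 7.75 and the mesenchymal factor ZEB1 from 7.72 to 9.65. The epithelial adhesion genes EPCAM and CDH1 had group means from 2.61 to 3.9 only, and the mesenchymal cadherin CDH2 from 3.61 to 5.06. All 5 measured markers of normal pancreas were below 6 in every group. Of 6 fibroblast markers 2 were below 6 in every group, and COL1A2 was high (10.96 to 12.21). The mean over the fibroblast list was 6.42 to 6.61 in polysome PP242 and 6.74 to 6.96 in polysome vehicle arrays, and 6.33 to 6.53 in cytosolic PP242 and 6.62 to 6.83 in cytosolic vehicle arrays. The mean over the 7 epithelial markers was 8.45 to 8.56 in polysome PP242 and 8.08 to 8.25 in polysome vehicle arrays, and 8.01 to 8.57 in cytosolic PP242 and 7.59 to 7.71 in cytosolic vehicle arrays. That over the 4 mesenchymal markers was 9.22 to 9.52 in polysome PP242 and 8.66 to 8.92 in polysome vehicle arrays, and 9.68 to 10.05 in cytosolic PP242 and 9.21 to 9.43 in cytosolic vehicle arrays. The fibroblast list was thus lower and the epithelial and mesenchymal lists higher with PP242 in both pools, with no overlap. The part of these markers in the results below was not tested.

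On polysomes, the mRNAs of ASNS, DDIT4, VLDLR and SESN2 fell with PP242 and those of DDIT3 and CEBPB rose. The mRNA of ATF4 itself did not pass the test, and neither did those of ATF3, ATF5 and CHAC1. ASNS and DDIT4 showed the largest changes among the 10, with levels 2.86-fold and 2.96-fold lower. Of the 10 genes 2 were called higher, where 6.81% of all 19775 genes were, and 4 were called lower, where 6.55% of all genes were (limma, Benjamini-Hochberg adjusted p under 0.05). The median difference of the 10 was -0.29, against -0.01 over all genes.

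In cytosolic RNA the same 6 genes changed in the same directions, and CHAC1 also fell. Thus 2 of the 10 were called higher, where 8.54% of all genes were, and 5 were called lower, where 7.91% were. The median difference of the 10 was -0.32, against 0.04 over all genes. In RNA from whole cultures, fewer cells that express a gene and less of its RNA in each cell cannot be told apart.

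**Figure D1:**
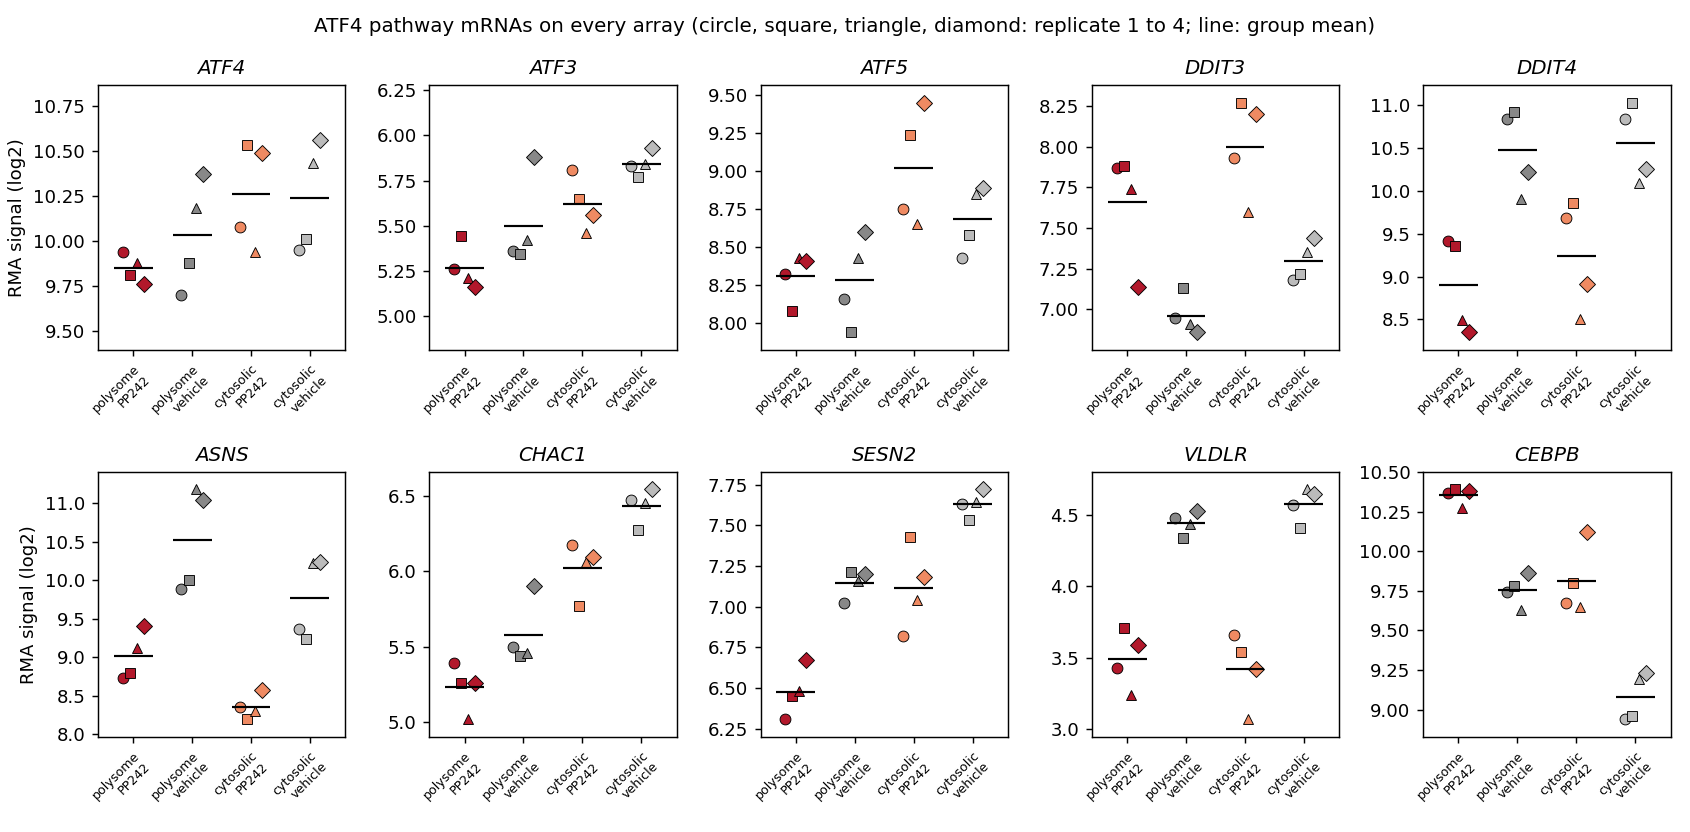
Signal (RMA, log2) of the 10 genes on each of 16 arrays, with circle, square, triangle and diamond for replicates 1 to 4 and a line at each group mean; panels have their own y ranges. ASNS, DDIT4, SESN2 and VLDLR lie lower with PP242 than with vehicle in polysome RNA and in cytosolic RNA with no overlap, DDIT3 and CEBPB lie higher with no overlap, and the ATF4 groups overlap.

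ATF4 (chr22:39520559-39522686) is the factor for which the pathway is named. Its level was 9.94, 9.81, 9.88 and 9.76 in polysome PP242 arrays, against 9.70, 9.88, 10.18 and 10.37 in polysome vehicle arrays. In cytosolic RNA it was 10.08, 10.53, 9.94 and 10.49 with PP242, against 9.95, 10.01, 10.43 and 10.56 with vehicle. The ranges overlapped in both pools, and the PP242 polysome arrays lay close together (SD 0.08) while the vehicle polysome arrays spread (SD 0.30). The PP242 difference was -0.18 ± 0.17 on polysomes (SE of the limma fit, 4 arrays a group; adjusted p = 0.604, limma) and 0.02 ± 0.17 in the cytosol (adjusted p = 0.945). The 95% intervals run from -0.54 to 0.17 on polysomes and from -0.33 to 0.38 in the cytosol, so changes of up to those sizes could go uncalled. Between arrays of the same number the polysome difference was 0.24, -0.07, -0.30 and -0.61 for numbers 1 to 4. The cytosolic differences were 0.13, 0.52, -0.49 and -0.07, lower in 2 of 4. Within numbers 1 and 2 the polysome difference was 0.09 and within 3 and 4 it was -0.46, and neither was called (adjusted p = 0.859 and 0.255). The vehicle arrays numbered 3 and 4 had more ATF4 mRNA than those numbered 1 and 2, by 0.49 on polysomes and 0.52 in the cytosol, whereas with PP242 these gaps were -0.06 and -0.09.

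Of the 4 other bZIP factors among the members, DDIT3 and CEBPB rose and ATF3 and ATF5 did not pass the test. DDIT3 (chr12:57516588-57520517) encodes CHOP, a factor induced by prolonged stress that favours cell death. Its level was 7.87, 7.88, 7.74 and 7.14 in polysome PP242 arrays, against 6.95, 7.13, 6.91 and 6.86 in polysome vehicle arrays. In the cytosol its level was 7.93, 8.27, 7.60 and 8.20 with PP242, against 7.18, 7.22, 7.35 and 7.44 with vehicle. DDIT3 was thus higher with PP242 in both pools with no overlap, although PP242 polysome replicate 4 came within 0.01 of the highest vehicle array. The rise was 1.62-fold on polysomes (0.70 ± 0.16; adjusted p = 0.00702, limma) and 1.63-fold in the cytosol (0.70 ± 0.16; adjusted p = 0.00601), and it was present in 4 of 4 numbered pairs in each pool. Within numbers 3 and 4 alone it was 0.56 on polysomes and 0.51 in the cytosol and was not called (adjusted p = 0.259 and 0.290). The cytosolic call was also lost without replicate 2 (adjusted p = 0.0842) and without cytosolic PP242 arrays 2 and 4 (0.47; adjusted p = 0.131), and the polysome call without replicate 1 (adjusted p = 0.0872).

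CEBPB (chr20:50190583-50192690) encodes a C/EBP factor that pairs with ATF4 and also drives inflammatory and differentiation genes. Its level was 10.37, 10.39, 10.27 and 10.38 in polysome PP242 arrays, against 9.74, 9.78, 9.63 and 9.86 in polysome vehicle arrays. Its cytosolic level was 9.67, 9.80, 9.65 and 10.12 with PP242, against 8.94, 8.96, 9.19 and 9.23 with vehicle. Every PP242 array was above every vehicle array of its pool. The rise was 1.52-fold on polysomes (0.60 ± 0.12; adjusted p = 0.00146, limma) and 1.66-fold in the cytosol (0.73 ± 0.12; adjusted p = 2.32e-04). Within numbers 3 and 4 alone the values were 0.58 and 0.68, with no call (adjusted p = 0.12 and 0.0774).

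ATF3 (chr1:212565407-212620777), a stress-induced repressor, and ATF5 (chr19:49928906-49933935), a factor with upstream reading frames like those of ATF4, did not pass the test. ATF3 ranged from 5.16 to 5.44 in polysome PP242 and from 5.34 to 5.88 in polysome vehicle arrays, a difference of -0.23 ± 0.12 (adjusted p = 0.275, limma). In the cytosol it ranged from 5.46 to 5.81 with PP242 and from 5.77 to 5.93 with vehicle, a difference of -0.22 ± 0.12 (adjusted p = 0.238). The groups overlapped in both pools. ATF5 ranged from 8.08 to 8.43 in polysome PP242 and from 7.94 to 8.60 in polysome vehicle arrays (0.03 ± 0.18; adjusted p = 0.962). In the cytosol it ranged from 8.65 to 9.45 with PP242 and from 8.43 to 8.89 with vehicle (0.34 ± 0.18; adjusted p = 0.221). None of the 5 other probe sets of ATF3 and ATF5 was called in either pool when all 41091 probe sets were tested.

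ASNS (chr7:97851677-97928441) encodes asparagine synthetase, which makes asparagine from aspartate and glutamine and is the textbook ATF4 target. Its level was 8.73, 8.80, 9.12 and 9.41 in polysome PP242 arrays, against 9.89, 10.01, 11.18 and 11.04 in polysome vehicle arrays. In cytosolic RNA it was 8.36, 8.20, 8.30 and 8.58 with PP242, against 9.37, 9.24, 10.22 and 10.24 with vehicle. PP242 and vehicle did not overlap in either pool, and vehicle arrays numbered 3 and 4 stood above those numbered 1 and 2 by 1.16 on polysomes and 0.93 in the cytosol. With PP242 the same gap was 0.50 on polysomes and 0.16 in the cytosol. ASNS fell by 1.52 ± 0.28 on polysomes (adjusted p = 8.63e-04, limma) and fell by 1.41 ± 0.28 in the cytosol, which is 2.65-fold (adjusted p = 0.00159). Within numbers 1 and 2 it fell by 1.19 on polysomes (adjusted p = 1.13e-04) and fell by 1.02 in the cytosol (adjusted p = 3.13e-04). Within numbers 3 and 4 it fell by 1.84 on polysomes (adjusted p = 7.93e-04) and fell by 1.79 in the cytosol (adjusted p = 8.98e-04). A second ASNS probe set had a mean of only 2.50 and was not called in either pool.

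CHAC1 (chr15:40953471-40956512) encodes an enzyme that degrades glutathione and is induced through ATF4 and CHOP. Its level ranged from 5.02 to 5.39 in polysome PP242 and from 5.44 to 5.90 in polysome vehicle arrays. In cytosolic RNA it ranged from 5.77 to 6.17 with PP242 and from 6.27 to 6.54 with vehicle. PP242 arrays were below vehicle arrays with no overlap in both pools. The polysome difference of -0.34 ± 0.13 was not called (adjusted p = 0.0864, limma), and with the replicate number as a block it was (adjusted p = 0.0340). CHAC1 fell by 0.41 ± 0.13 in the cytosol (adjusted p = 0.0327), a call that was lost when any 1 replicate number was left out (adjusted p = 0.0771 to 0.132) and without cytosolic PP242 arrays 2 and 4 (-0.32; adjusted p = 0.206).

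SESN2 and DDIT4 encode inhibitors of mTOR complex 1. SESN2 (chr1:28259518-28282491), or sestrin 2, binds leucine and restrains the GATOR2 complex that activates mTOR complex 1. Its level was 6.31, 6.45, 6.48 and 6.67 in polysome PP242 arrays, against 7.02, 7.21, 7.16 and 7.20 in polysome vehicle arrays. In the cytosol its level was 6.82, 7.43, 7.04 and 7.18 with PP242, against 7.63, 7.53, 7.64 and 7.72 with vehicle. SESN2 was lower with PP242 in both pools with no overlap, and cytosolic PP242 replicate 2 came closest to vehicle. It fell by 0.67 ± 0.12 on polysomes, or 1.59-fold (adjusted p = 0.00100, limma), and fell by 0.51 ± 0.12 in the cytosol, or 1.43-fold (adjusted p = 0.00787). Its second probe set gave -0.71 on polysomes (adjusted p = 0.0101) and -0.49 in the cytosol, where it was not called (adjusted p = 0.0657). The cytosolic call was lost without replicate 1 or 4 (adjusted p = 0.0655 and 0.0556) and within each pair of numbers (adjusted p = 0.144 and 0.0722), and the polysome call within numbers 3 and 4 (adjusted p = 0.0554).

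DDIT4 (chr10:72273924-72276036) encodes REDD1, which restrains mTOR complex 1 through the TSC complex and is induced by hypoxia and glucocorticoids as well as by ATF4. Its level was 9.42, 9.36, 8.49 and 8.35 in polysome PP242 arrays, against 10.84, 10.92, 9.91 and 10.22 in polysome vehicle arrays. Its cytosolic level was 9.68, 9.86, 8.50 and 8.91 with PP242, against 10.84, 11.03, 10.09 and 10.26 with vehicle. The PP242 and vehicle arrays did not overlap, and within each group arrays 3 and 4 were lower than arrays 1 and 2. That gap was 0.97 and 0.82 log2 units on polysomes with PP242 and with vehicle, and 1.07 and 0.76 in the cytosol. DDIT4 fell by 1.57 ± 0.32 on polysomes (adjusted p = 0.00208, limma) and fell by 1.32 ± 0.32 in the cytosol, or 2.49-fold (adjusted p = 0.00746). The fall was called within numbers 1 and 2 (-1.49 on polysomes and -1.17 in the cytosol) and within numbers 3 and 4 (-1.64 and -1.47). Thus DDIT4 and ASNS differed between the numbers in opposite directions, while PP242 lowered both in every numbered pair.

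VLDLR (chr9:2621787-2660056) encodes the very-low-density lipoprotein receptor, a lipid receptor that ATF4 can induce. Its level was 3.43, 3.71, 3.24 and 3.59 in polysome PP242 arrays, against 4.48, 4.34, 4.44 and 4.53 in polysome vehicle arrays. In cytosolic RNA it was 3.66, 3.54, 3.07 and 3.42 with PP242, against 4.57, 4.41, 4.68 and 4.65 with vehicle. PP242 arrays lay below vehicle arrays with wide gaps in both pools. All of these signals were below the median gene signals of the arrays (5.67 to 6.12). With PP242 and with vehicle they lay in the range of markers of normal pancreas (group means 2.46 to 5.54). The table used here gives no detection calls, so whether VLDLR was above background with PP242 or with vehicle is not known. Its differences are given as differences of signal with no fold. VLDLR fell by 0.96 ± 0.12 on polysomes (adjusted p = 2.85e-05, limma), and fell by 1.16 ± 0.12 in the cytosol (adjusted p = 3.36e-06), the smallest adjusted p of the 10 in each pool. Both falls were also called within numbers 1 and 2 and within numbers 3 and 4 (-0.84 and -1.07 on polysomes, -0.89 and -1.42 in the cytosol).

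**Figure D2:**
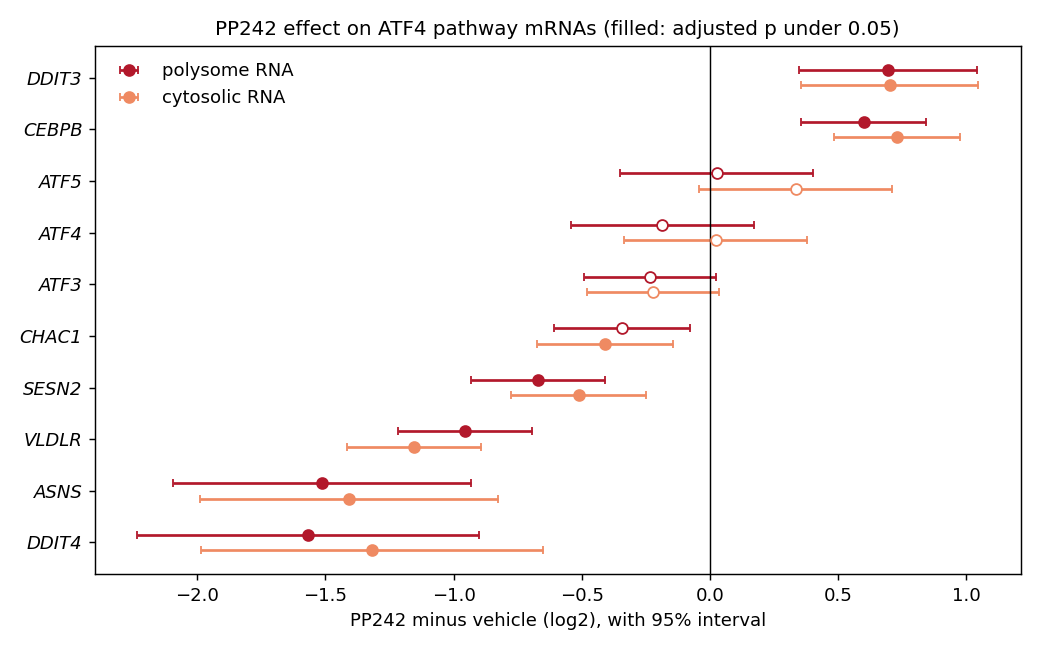
PP242 minus vehicle (log2, x axis) for the 10 genes in polysome RNA (dark) and cytosolic RNA (light), with 95% intervals of the limma fit and filled points at an adjusted p under 0.05. DDIT4, ASNS, VLDLR and SESN2 lie below 0 and CEBPB and DDIT3 above 0 in both pools, and CHAC1 is called in cytosolic RNA only.

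The groups did not overlap for 2 members higher and 5 lower with PP242 on polysomes, where 9.48% and 9.86% of all genes were so separated. In the cytosol the counts were also 2 and 5, where the shares of all genes were 9.34% and 8.34%.

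The next question was whether PP242 changed how much of each mRNA was on polysomes, beyond its change in the cytosol. None of the 10 genes was called in this difference of differences. The values ran from -0.31 ± 0.25 for ATF5 to 0.20 ± 0.18 for VLDLR, and none had an unadjusted p under 0.05. For ATF4 the difference was -0.21 ± 0.24, with a 95% interval from -0.71 to 0.30 (adjusted p = 0.783, limma). For ASNS it was -0.11 ± 0.39, and for DDIT4 it was -0.25 ± 0.45, with an interval from -1.19 to 0.69. These intervals are wide, so in this fit a change in polysome association of the size of many of the mRNA changes would not have been called. The fit leaves differences between replicate numbers in the error. With the number as a block, the SE of the PP242 difference within a pool was 0.16 for ASNS and 0.10 for DDIT4. Without the block these SEs were 0.28 and 0.32. The blocked fit also called none of the 10 in polysome association. The percentage of all 19775 genes called in this comparison was 0, with 1750 genes at an unadjusted p under 0.05. When polysome values of each gene were instead regressed on its cytosolic values, limma called 325 genes higher and 370 lower, with none of the 10 among them.

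The PP242 effect on each of the other 9 genes was then set against that on ATF4 within the same arrays. ASNS, DDIT4 and VLDLR fell relative to the ATF4 mRNA in both pools, and CEBPB rose relative to it in both. On polysomes 2 of the 9 were called higher and 3 lower, where 4.4% and 1.62% of the 19774 other genes were. In the cytosol 1 was called higher and 3 lower, where 1.94% and 3.34% were. The ASNS effect minus that of ATF4 was -1.33 ± 0.23 on polysomes (adjusted p = 2.44e-04, limma) and -1.43 ± 0.23 in the cytosol (adjusted p = 7.91e-05). For DDIT4 it was -1.38 ± 0.34 on polysomes (adjusted p = 0.00942) and -1.34 ± 0.34 in the cytosol (adjusted p = 0.0135). For VLDLR it was -0.77 ± 0.22 on polysomes (adjusted p = 0.0285) and -1.18 ± 0.22 in the cytosol (adjusted p = 6.09e-04). The bZIP members CEBPB and DDIT3 lay on the other side of ATF4.

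CEBPB rose relative to ATF4 by 0.79 ± 0.19 on polysomes (adjusted p = 0.00826, limma) and by 0.71 ± 0.19 in the cytosol (adjusted p = 0.0201). DDIT3 rose by 0.88 ± 0.21 on polysomes (adjusted p = 0.00828). In the cytosol its value of 0.68 ± 0.21 was not called (adjusted p = 0.0556), and it was called with the replicate number as a block (adjusted p = 0.0118). The remaining genes were not called against ATF4. SESN2 gave -0.48 ± 0.21 on polysomes and -0.54 ± 0.21 in the cytosol (adjusted p = 0.193 and 0.156). It was called lower in both pools with array weights (-0.58 and -0.67; adjusted p = 0.0239 and 0.0432) and within numbers 1 and 2 (-0.82 and -0.78; adjusted p = 0.0128 and 0.0115). CHAC1 gave -0.16 and -0.43, ATF3 -0.05 and -0.25, and ATF5 0.21 and 0.31, with no call. The cytosolic call of CEBPB was lost when any 1 replicate number was left out (adjusted p = 0.0571 to 0.151). With 1 number left out, the polysome calls of CEBPB (without 2, 3 or 4), DDIT3 (without 3) and VLDLR (without 1, 2 or 3) were lost as well.

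**Figure D3:**
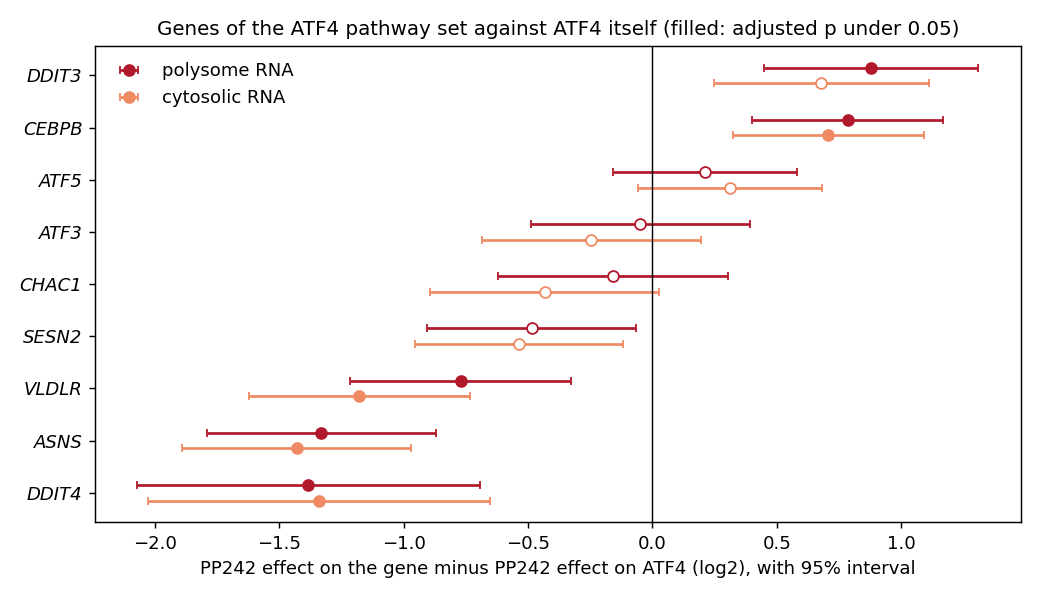
PP242 effect on each of 9 genes minus the PP242 effect on ATF4 (log2, x axis) in polysome RNA (dark) and cytosolic RNA (light), with 95% intervals and filled points at an adjusted p under 0.05. ASNS, DDIT4 and VLDLR lie below 0 and CEBPB lies above 0 in both pools, and DDIT3 is called on polysomes only.

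Likeness to ATF4, ASNS and DDIT4 was described by Pearson's r over the 16 arrays after the mean of each RNA pool was removed, among 9656 genes with a mean of at least 6. All of these genes share the same arrays and the same treatment contrast, so the values are a description. Nearest to ATF4 were TRIM11 (0.927), NOP2 (0.910), CCNQ (0.904), PAM16 (0.900) and MCOLN1 (0.899). Of the members ATF5 came closest to ATF4 (0.743, place 181), ASNS gave 0.478 and DDIT4 gave 0.03. Nearest to ASNS were RFWD3 (0.974), FBXO45 (0.971), MTHFD2 (0.967), GATA2 (0.966) and EYA3 (0.965), and of the members SESN2 came closest (0.856, place 391). VLDLR, whose mean was under 6 and which is therefore outside that set, gave 0.865 to ASNS. Nearest to DDIT4 were GNE (0.985), DHRS3 (0.980), ARG2 (0.979), SELENOK (0.975) and COL1A2 (0.971). CEBPB ran opposite to ASNS (-0.755), and so did DDIT3 (-0.795).

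Genes for the supply of amino acids and charged tRNAs, known ATF4 targets, were looked at as further lists of the pathway. These lists too were chosen with earlier results of these data known, so their counts are a description. Of 13 measured genes for amino acid synthesis and one-carbon metabolism, 5 fell on polysomes and 6 in the cytosol, and none rose. Over all genes, 6.55% were called lower on polysomes and 7.91% in the cytosol. The shares called higher were 6.81% and 8.54%, and for so few genes a lack of rises was near them. PSAT1, the aminotransferase of serine synthesis, fell by 1.86 on polysomes (adjusted p = 3.73e-05, limma) and fell by 2.28 in the cytosol (adjusted p = 3.89e-06). MTHFD2, a mitochondrial folate enzyme, fell by 1.24 on polysomes and fell by 1.37 in the cytosol. PHGDH, the first enzyme of serine synthesis, fell by 0.97 on polysomes and fell by 0.57 in the cytosol, and GOT1, the cytosolic aspartate aminotransferase, fell by 0.59 on polysomes and fell by 0.37 in the cytosol. The list's median difference was -0.51 on polysomes and -0.18 in the cytosol.

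Of 12 measured genes for aminoacyl-tRNA synthetases and tRNA export, 7 fell on polysomes and 6 in the cytosol, and none rose. The shares of all genes called lower were 6.55% on polysomes and 7.91% in the cytosol. Those called higher were 6.81% and 8.54%, and for so few genes a lack of rises was near them. The synthetases YARS1, WARS1 and AARS1, which charge tRNAs with tyrosine, tryptophan and alanine, fell by 0.92, 0.91 and 0.78 on polysomes (adjusted p = 0.00140, 1.47e-04 and 6.57e-04, limma). In the cytosol YARS1, WARS1 and AARS1 fell by 0.70, 0.52 and 0.49. IARS1, for isoleucine, fell by 0.35 on polysomes and fell by 0.41 in the cytosol. The median difference was -0.53 on polysomes and -0.47 in the cytosol.

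Calls among amino acid transporters were mixed. Of 9 measured, 2 rose and 2 fell on polysomes, where 6.81% and 6.55% of all genes were called. In the cytosol 1 rose, where 8.54% of all genes were called higher, so that count was near the share. SLC43A1, a transporter of branched and aromatic amino acids, rose by 0.67 on polysomes and by 0.73 in the cytosol (adjusted p = 0.00153 and 6.63e-04, limma). SLC38A2, a carrier of small neutral amino acids, rose by 0.57 on polysomes (adjusted p = 0.0436) and gave 0.04 in the cytosol. SLC3A2, the shared chain of several transporters, fell by 0.84 (adjusted p = 0.0428) and SLC1A4 fell by 0.74 (adjusted p = 0.0445) on polysomes, with uncalled cytosolic values of -0.12 and -0.37. SLC7A5 and SLC7A11 were not called, but both were lower with PP242 in every numbered pair of both pools. Mean SLC7A5 was 8.7 with PP242 and 9.8 with vehicle on polysomes, and 9.2 and 10.0 in the cytosol. Mean SLC7A11 was 6.5 and 7.1 on polysomes and 6.9 and 7.9 in the cytosol. In each group their arrays numbered 3 and 4 lay above those numbered 1 and 2. SLC7A1, also uncalled, had higher means with PP242 in both pools.

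Of 17 measured stress feedback and stress signal genes, 2 fell on polysomes, and 3 fell and 2 rose in the cytosol. JDP2, a bZIP repressor, fell by 0.89 on polysomes and fell by 0.64 in the cytosol (adjusted p = 4.97e-04 and 0.00783, limma). CEBPG, a C/EBP partner of ATF4, fell by 0.76 on polysomes and fell by 0.83 in the cytosol (adjusted p = 0.0206 and 0.0110). In the cytosol STC2, a secreted glycoprotein, rose by 0.35 (adjusted p = 0.0181) and PPP1R15A, the GADD34 subunit that directs eIF2 dephosphorylation, rose by 0.59 (adjusted p = 0.0205). On polysomes STC2 gave 0.03 and PPP1R15A 0.46, with no call. Over these 4 lists together, 51 genes were measured. Of them 16 fell and 2 rose on polysomes, where 6.55% and 6.81% of all genes were called. In the cytosol 15 fell and 3 rose, where 7.91% and 8.54% of all genes were called. The counts of genes that rose were near or below those shares.

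**Figure D4:**
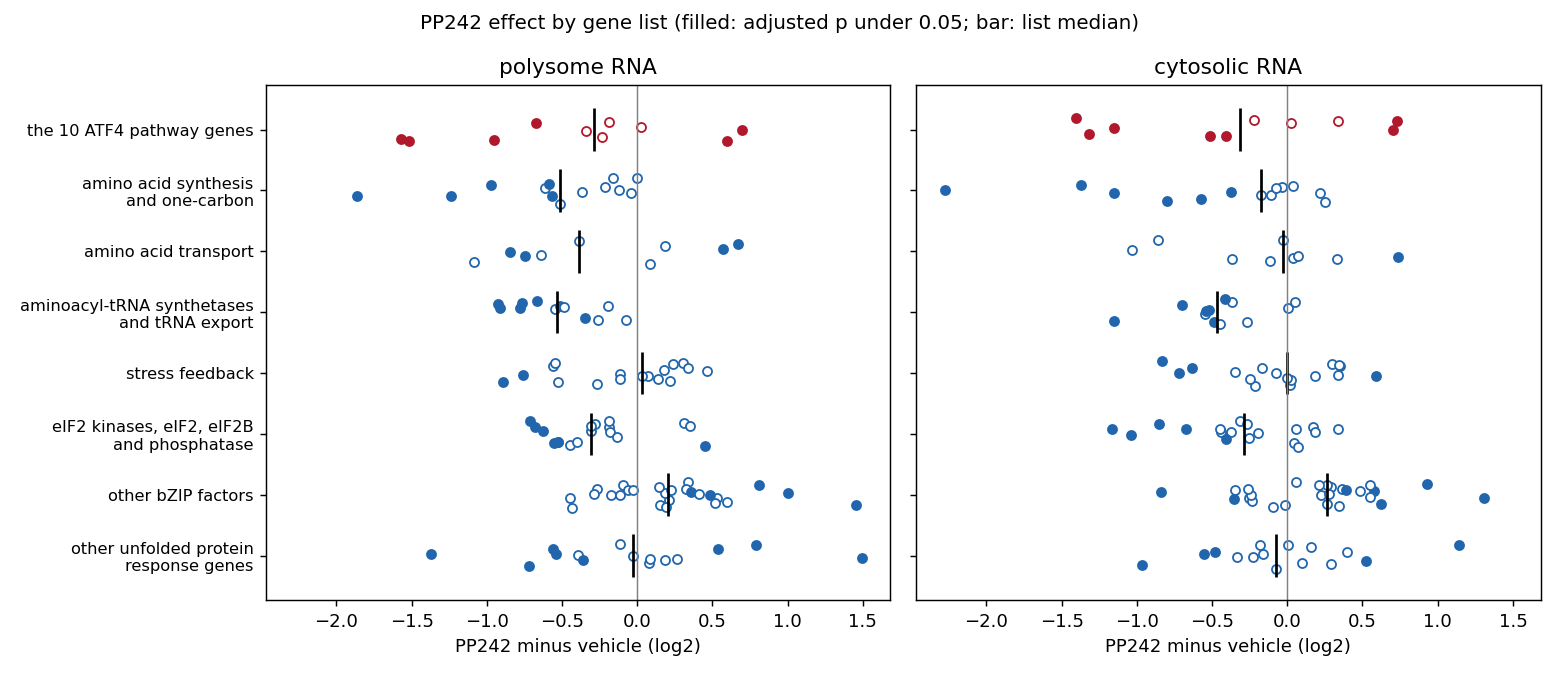
PP242 minus vehicle (log2, x axis) of each gene, by list, in polysome RNA (left) and cytosolic RNA (right), with filled points at an adjusted p under 0.05 and a bar at the list median. The lists for amino acid synthesis and tRNA charging hold called genes only below 0, and the other bZIP factors hold called genes only above 0 on polysomes.

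Upstream of ATF4, 6 of 18 measured genes for eIF2 kinases, eIF2, eIF2B and the phosphatase fell on polysomes and 1 rose, while 5 fell in the cytosol. Of all genes 6.55% were called lower and 6.81% higher on polysomes, and 7.91% were called lower in the cytosol. The count that rose was near that share. EIF2AK2, the double-stranded RNA kinase PKR, fell by 0.68 on polysomes and fell by 1.04 in the cytosol (adjusted p = 0.0227 and 9.64e-04, limma). PPP1CC, a catalytic phosphatase subunit, fell by 0.53 on polysomes and fell by 0.41 in the cytosol. Its relative PPP1CB fell by 1.17 in the cytosol (adjusted p = 0.00187, limma) and gave -0.45 on polysomes, with no call. In the cytosolic PP242 arrays of low weight, 2 and 4, PPP1CB was at 7.17 and 6.96. In arrays 1 and 3 it was at 8.05 and 8.35, against 8.59 to 9.03 with vehicle. EIF2B3, a subunit of the eIF2 exchange factor, fell by 0.56 on polysomes (adjusted p = 0.00305, limma).

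Among 26 other measured bZIP factors, 5 rose and none fell on polysomes, and 5 rose and 2 fell in the cytosol. The shares of all genes called higher and lower were 6.81% and 6.55% on polysomes and 8.54% and 7.91% in the cytosol. The cytosolic count that fell was near that share. MAFF, a small MAF protein, rose by 1.45 on polysomes and by 1.30 in the cytosol (adjusted p = 1.86e-07 and 6.95e-07, limma), and JUN, an AP-1 subunit, rose by 1.00 on polysomes and by 0.93 in the cytosol. BACH1, a repressor of oxidant defence genes, rose by 0.81 on polysomes (adjusted p = 0.00354), and NFE2L1, which drives proteasome genes, rose by 0.63 in the cytosol (adjusted p = 0.00518). Beside CEBPB and DDIT3, which rose, CEBPG and JDP2 fell, so bZIP factors changed in both directions.

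Of 15 measured unfolded protein response genes outside the members, 3 rose and 5 fell on polysomes, and 2 rose and 3 fell in the cytosol. Over all genes 6.81% were called higher and 6.55% lower on polysomes, and 8.54% and 7.91% in the cytosol. ERN1, the sensor kinase IRE1, rose by 1.5 on polysomes and by 1.15 in the cytosol (adjusted p = 1.57e-05 and 2.56e-04, limma). The chaperone-associated genes SDF2L1, MANF and HSPA5 fell by 1.37, 0.72 and 0.36 on polysomes, and fell by 0.97, 0.48 and 0.56 in the cytosol. DDIT3 rose in cells in which ERN1 was higher and HSPA5, the chaperone BiP, was lower. The part of endoplasmic reticulum stress in the rise of DDIT3 was not tested.

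Relatives of the members and genes that share inducers with them were also measured. CHAC2, the relative of CHAC1, fell by 1.11 on polysomes and fell by 2.07 in the cytosol (adjusted p = 0.00843 and 2.76e-05, limma), and DDIT4L, the relative of DDIT4, gave 0.29 and 0.48 with no call. In all 3 of 9 relatives fell on polysomes and 2 in the cytosol, ASRGL1 and GGCT being the other polysome falls (by 0.84 and by 0.44). DDIT4 is also a hypoxia target, and of 11 measured hypoxia genes 2 rose and 1 fell on polysomes, and 3 rose and 1 fell in the cytosol. For both lists, the shares of all genes called higher and lower were 6.81% and 6.55% on polysomes. In the cytosol these shares were 8.54% and 7.91%. The counts of hypoxia genes that fell were near them. NDRG1 rose by 0.82 on polysomes and by 0.94 in the cytosol and ADM rose by 1.35 on polysomes and was called higher in the cytosol too (adjusted p = 0.0430 and 0.0120), opposite to DDIT4, while P4HA1 fell by 0.56 on polysomes and HIF1A fell by 0.85 in the cytosol.

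The level on polysomes was last set against that in the cytosol. This ratio depends on how the 2 pools are scaled to each other: over all genes its median was -0.18 with PP242 and -0.16 with vehicle as deposited, and 0.17 and 0.20 after arrays were centred on their medians. As deposited, 1 member was higher and 5 lower on polysomes with PP242, where 16.1% and 38.1% of all genes were. With vehicle 2 were higher and 3 lower, where 16.8% and 35.9% were. CEBPB was higher on polysomes, by 0.54 ± 0.12 with PP242 and by 0.67 ± 0.12 with vehicle (adjusted p = 7.28e-04 and 1.04e-04, limma). CHAC1 was lower on polysomes, at -0.79 ± 0.13 with PP242 and -0.86 ± 0.13 with vehicle (adjusted p = 4.49e-05 and 2.01e-05). CEBPB and CHAC1 kept their direction and their call in both kinds of cells under all 4 scalings. The polysome means of CHAC1, 5.23 with PP242 and 5.58 with vehicle, were below the median gene signals of the polysome arrays (5.67 to 5.81). As deposited, the normal pancreas markers, low in every group, were also lower on polysomes. Their list mean with PP242 was 3.24 to 3.57, against 3.93 to 4.25 in the cytosol. With vehicle it was 3.39 to 3.48, against 3.87 to 3.98. The part of low signal in the CHAC1 difference was not tested.

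ASNS was higher on polysomes in 4 of 4 numbered pairs with PP242 (0.37, 0.60, 0.82 and 0.83) and with vehicle (0.52, 0.77, 0.96 and 0.80). The difference was 0.66 ± 0.28 with PP242, which was not called (adjusted p = 0.0536, limma). It was called with the replicate number as a block (adjusted p = 0.00197), with centred arrays (1.01; adjusted p = 0.00694), with the arrays of the contrast alone (adjusted p = 0.00833), within numbers 1 and 2 (0.48; adjusted p = 0.00970) and within numbers 3 and 4 (0.82; adjusted p = 0.00698). With vehicle it was 0.76 ± 0.28 (adjusted p = 0.0274, limma), and that call was lost under quantile and cyclic loess scaling (0.47 and 0.54, adjusted p = 0.182 and 0.131). The vehicle call was also lost with the arrays of the contrast alone (adjusted p = 0.058, limma). Leaving out replicate 2, 3 or 4 lost it as well (adjusted p = 0.062, 0.0661 and 0.0541, limma). SESN2 was lower on polysomes, at -0.64 with PP242 and -0.48 with vehicle, and its call was lost when arrays were centred (-0.29 and -0.13). The second SESN2 probe set gave -0.09 with PP242 and 0.12 with vehicle, so the probe sets disagree.

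ATF4 was at -0.41 ± 0.17 with PP242 (adjusted p = 0.0480, limma) and -0.20 ± 0.17 with vehicle (adjusted p = 0.327). Its PP242 value was -0.06 when arrays were centred and -0.16 without cytosolic PP242 arrays 2 and 4, both uncalled, and its vehicle value was 0.15, uncalled, when arrays were centred and -0.50, called, under quantile and cyclic loess scaling. ATF5 was at -0.71 ± 0.18 with PP242 (adjusted p = 0.00261) and -0.41 ± 0.18 with vehicle (adjusted p = 0.0655, and 0.0218 with the replicate number as a block). The PP242 value of ATF5 was -0.36 with centred arrays (adjusted p = 0.108) and -0.39 without cytosolic PP242 arrays 2 and 4, and was not called in either. DDIT4 was at -0.33 with PP242, called only with the block (adjusted p = 0.0102) and within numbers 1 and 2, and at -0.08 with vehicle. ATF3 was lower as deposited (-0.35 with PP242 and -0.34 with vehicle, both called), DDIT3 and VLDLR were not called, and the signs of ATF4, ATF3, DDIT3, DDIT4 and VLDLR turned in at least 1 kind of cell under another scaling. With PP242, VLDLR was called higher on polysomes under the other scalings (0.42 to 0.45).

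**Figure D5:**
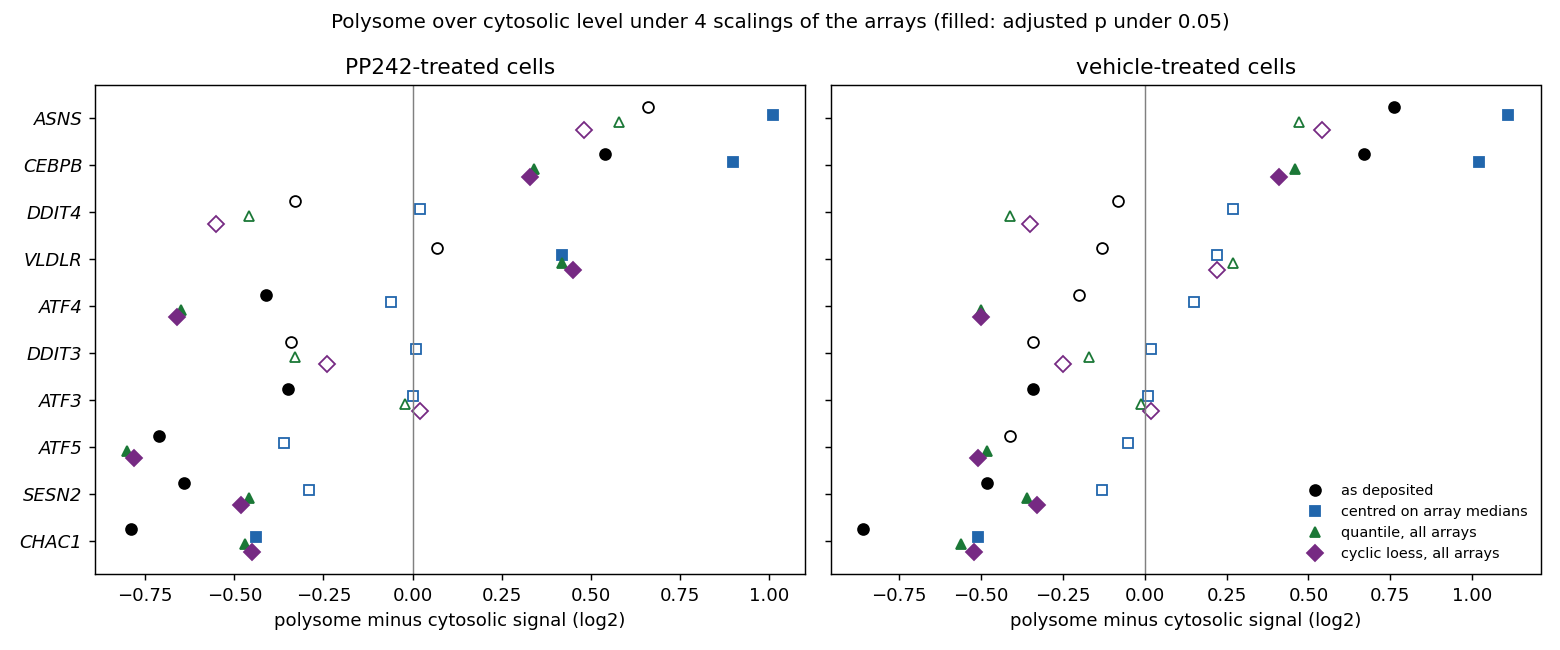
Polysome minus cytosolic signal (log2, x axis) of the 10 genes in PP242-treated cells (left) and vehicle-treated cells (right) under 4 scalings of the arrays, with filled markers at an adjusted p under 0.05. CEBPB lies above 0 and CHAC1 below 0 under each scaling in both kinds of cells, while ATF4, ATF3, DDIT3, DDIT4 and VLDLR cross 0 in at least 1 of them.

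Within a gene the order of the group means can be read with the same limit on scaling. For ASNS and VLDLR the means of both vehicle groups stood above those of both PP242 groups. ASNS arrays of cytosolic vehicle overlapped those of polysome PP242 and polysome vehicle, and VLDLR arrays overlapped between pools with PP242 and with vehicle. For DDIT4 the cytosolic and polysome vehicle groups overlapped, as did the cytosolic and polysome PP242 groups. For CEBPB polysome PP242 was highest and cytosolic vehicle lowest, and cytosolic PP242 and polysome vehicle overlapped between them. For SESN2 cytosolic vehicle was highest and polysome PP242 lowest, and cytosolic PP242 overlapped polysome vehicle. For CHAC1 the order ran from cytosolic vehicle through cytosolic PP242 and polysome vehicle to polysome PP242, with an overlap only between cytosolic PP242 and polysome vehicle. For DDIT3 cytosolic PP242 was highest and polysome vehicle lowest, polysome PP242 overlapped both cytosolic groups, and polysome vehicle overlapped none. For ATF4 all pairs of groups overlapped except polysome PP242 and cytosolic vehicle. For ATF3 and ATF5 each group overlapped or touched its neighbour in the order of means.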

How the data were processed

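MiaPaca-2 RNA of 4 groups was read on 16 Affymetrix 3' arrays. The deposited table holds log2 values of 54613 probe sets, with 0 missing, summarized with RMA per the submitters' processing notes; the version, the background settings and whether the pools were normalized together are not given in the sources used. Median gene signals were 5.67 to 5.81 in polysome and 6.02 to 6.12 in cytosolic arrays, so a shift shared by all genes between pools cannot be seen. Of the probe sets, 41091 list 1 gene in the platform annotation and were used, 1801 list several and 11721 are not in that table. Each of 19775 genes was represented by its probe set of highest mean signal.

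limma 3.58.1 in R 4.3.3 (lmFit, 1 mean per group over all arrays; eBayes with an intensity trend) tested all genes, two-sided, with Benjamini-Hochberg adjustment over all of them and calls at an adjusted p under 0.05. Errors are SEs of the fit unless SD is named. For the comparison with ATF4, its signal was subtracted from every other gene on each array. On simulated polysome data over 19775 genes, 36%, 94%, 100% and 100% of genes planted at log2 0.5, 1, 1.5 and 2 were recovered. Whether the replicate numbers pair samples was checked. Deviations from group means correlated at 0.164 to 0.51 in 16 of 16 pairs of arrays that share a number. Pairs of arrays with different numbers were not set beside them. Several members also differed between lower and higher numbers, so this check cannot tell pairing by number from a shift shared by several numbers. Values with the number as a block are given where they change a call, and beside polysome association. The block was a fixed term of the limma model (statmod 1.5.0 was loaded but not called for it). The number of arrays limits the precision.

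The members and lists were chosen with earlier results of these data known. All 10 members are named, with up to 4 genes of each list with the smallest p in either PP242 comparison, and the 5 genes most like ATF4, ASNS and DDIT4. The transporters SLC7A5, SLC7A11 and SLC7A1 are named besides. Other scalings, probe set rules, filters, array weights and left-out arrays were tried. Listed genes with no probe set of their own were not analysed here, and 1 list is not reported here.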

Additional observations from a re-analysis of the deposited data

Results flagged for a closer look

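In 40 groups of 4 arrays checked (10 genes in 4 groups), 3 had an array set far from the other 3, where chance gives about 1 in 20 groups. In polysome vehicle replicate 4, ATF3 was at 5.88, while the other 3 arrays lay between 5.34 and 5.42. In the same array CHAC1 was at 5.90, while the others lay between 5.44 and 5.50. CEBPB was at 10.27 in polysome PP242 replicate 3, while the others lay between 10.37 and 10.39.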

How the results depend on the processing

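The 10 genes gave 1145 values under the alternatives, of which 1038 kept their side of the threshold, 69 lost a call, 34 gained one and 4 called values reversed. Among the 1038 were 54 uncalled values that changed sign. The reversed values were those of ATF3 between pools, which with PP242 became 0.02 under cyclic loess and 0.00 with arrays centred on their medians, and with vehicle 0.02 and 0.01. On polysomes, 2 members were called higher with PP242 and 4 lower; within numbers 3 and 4 this became 0 higher, and without single replicates 1 to 2 higher and 4 to 4 lower. In the cytosol, the 2 called higher became 0 within numbers 3 and 4, 1 without cytosolic PP242 arrays 2 and 4, and 1 to 2 without single replicates. The 5 called lower became 3 among genes with a mean of at least 6 (which leaves out ATF3, CHAC1 and VLDLR), 3 within numbers 1 and 2, 3 within numbers 3 and 4, and 3 to 4 without single replicates. Polysome association had 0 calls among the members under every alternative.

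Relative to ATF4, the 2 members higher on polysomes became 1 within numbers 1 and 2 and 0 to 2 without single replicates, and the 3 lower became 2 to 3. In the cytosol the 1 higher became 2 under quantile scaling, 2 with the filter, 2 with the replicate block, 2 within numbers 3 and 4, 0 with the arrays of the contrast alone and 0 to 0 without single replicates, and the 3 lower became 3 to 3.

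Between pools, with PP242 the 1 higher became 2 under quantile, cyclic loess, the arrays of the contrast alone, the replicate block and within numbers 1 and 2, 3 with centred arrays, and 1 to 1 without single replicates. The 5 lower became 1 with centred arrays, 2 with the filter, 2 within numbers 3 and 4, 2 without cytosolic PP242 arrays 2 and 4, and 4 to 6 without single replicates. With vehicle the 2 higher became 1 under quantile, cyclic loess, the arrays of the contrast alone and within numbers 3 and 4, and 1 to 2 without single replicates. The 3 lower became 1 with centred arrays, 1 with the filter, 5 with array weights, 5 with the arrays of the contrast alone, and 2 to 3 without single replicates. The cause of these changes was not tested.

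Over all genes the replicate block called 2094 higher and 1919 lower on polysomes, against 1346 and 1295 without it, and 2755 and 2174 in the cytosol, against 1689 and 1564; for the members it changed no call other than those given with it. Without single replicates the polysome counts were 811 to 974 and 774 to 1033 and the cytosolic counts 658 to 1785 and 885 to 1534. Within numbers 3 and 4 they were 602 and 483 on polysomes and 455 and 603 in the cytosol, with the arrays of the contrast alone 965 and 1104 in the cytosol, and without cytosolic PP242 arrays 2 and 4 they were 672 and 1304 there. Relative to ATF4 the counts over the alternatives were 350 to 2829 higher and 151 to 993 lower on polysomes, against 870 and 321, and 168 to 1407 and 215 to 2093 in the cytosol, against 384 and 661. Between pools with PP242, 3175 genes were higher and 7527 lower as deposited, 4544 and 4638 under quantile scaling, 4714 and 4556 under cyclic loess and 7372 and 3172 with centred arrays. With vehicle these counts were 3328 and 7103, 4664 and 4172, 4672 and 4417, and 7660 and 2869. Within numbers 3 and 4 they were 1869 and 4870 with PP242 and 1989 and 4428 with vehicle. Signals near the bottom of the scale, such as those of VLDLR, limit how well sizes are known.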
